A study of Mus musculus with 17 samples.

Results

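A set of 3 liver libraries from male mice labelled Nampt +/- (called Het here) was compared with 3 from male mice labelled Nampt +/+ (called WT), all 24 h after 200 mg/kg acetaminophen (APAP). The 6 libraries were chosen by their genotype and treatment labels and are part of a series of 17 liver libraries, all of which entered the model. All 6 are labelled C57BL/6, a common inbred strain, and 11 weeks old. The labels do not say how the Nampt allele was made, in which cells it acts, or by which of the 2 stated routes, IP or IG, a given mouse was dosed. The 3 WT livers (WT APAP 1 to 3) were not perfused and carry the lane tag L005, as do Het APAP 2 and 3. Het APAP 1 came from a perfused liver with the lane tag L008. Livers given saline were used to see which differences existed without the drug: 2 labelled Het (both perfused, 11 weeks) and 3 labelled WT (2 perfused at 12 weeks and 1 not perfused at 11 weeks). The 6 other libraries are 5 with the genotype label Nampt OE, left unexplained there (2 given saline, 2 given 200 mg/kg and 1 given 300 mg/kg APAP), and 1 WT library whose label gives saline by IG. Of the OE livers, 1 given saline (11 weeks) and 1 given 200 mg/kg (12 weeks) were perfused and carry the tag L008. The other OE livers were not perfused and carry L004, at 12 weeks for 300 mg/kg and otherwise 11 weeks. The WT liver given saline by IG was not perfused, 11 weeks old and tagged L006. The library numbers follow the order of deposit and pair nothing. Of 46073 genes in the table, 11090 averaged 1 FPKM or more across all 17 libraries and were tested. FPKM counts sequenced fragments scaled to transcript length and library size.

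Nampt makes nicotinamide mononucleotide from nicotinamide, the rate-limiting step by which most cells recycle NAD. Hepatocytes can also make NAD from tryptophan, through Kynu, Haao and Qprt, and from nicotinic acid, through Naprt. APAP is cleared mainly by glucuronidation and sulfation, while P450 enzymes, Cyp2e1 foremost, oxidise some of the drug to a quinone imine that depletes glutathione and kills hepatocytes around the central vein. Kupffer cells, neutrophils and monocytes then respond, and surviving hepatocytes switch from metabolic to stress and repair programmes. Whether Nampt protects the liver from this injury is the question in the series' title.

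The 6 libraries held a summed 466883 to 644278 FPKM, and 10967 to 11496 genes reached 1 FPKM in each. The depth behind these values is unknown, and the labels do not state that each library is from its own mouse, so p-values reflect only the spread between these samples. Liver genes were abundant in all 6 libraries, with Apoa1 at 3842 to 6116 FPKM and Ttr at 1275 to 3234 FPKM, but Alb was listed at 0 in every library and was not tested. WT APAP 3 stood apart from the other 2 WT livers. On the first principal component, which held 42.2% of the variance, it scored -38.7, next to Het APAP 1 at -38.1, while WT APAP 1 and 2 scored -6.245 and -13.8 and Het APAP 2 and 3 scored -63.3 and -56.4. The 5 saline livers scored between 26.2 and 31.1. Differences are given as Het minus WT on the log2(FPKM + 1) scale, adjusted for perfusion, with standard errors, and this scale understates the change of low genes. Across the series all livers with the lane tags L007 and L008 were perfused, and no others. The perfusion term thus also takes up differences between lanes, and it rests in part on the Nampt OE and saline libraries. In whole liver, fewer cells of a type and less RNA per cell cannot be told apart.

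Nampt mRNA did not separate the labels after APAP. It stood at 15.4, 11.3 and 15.2 FPKM in Het APAP 1 to 3 and at 12.0, 10.9 and 16.7 FPKM in WT APAP 1 to 3, so the groups overlapped. The difference was 0.16 ± 0.22 (95% interval -0.33 to 0.64, limma adjusted p = 0.735). Under saline Nampt was higher in each of the Het livers, at 26.0 and 23.0 FPKM, than in the WT livers, at 18.0, 15.3 and 18.0 FPKM. That difference was 0.57 ± 0.25 and did not pass (limma adjusted p = 0.397, unadjusted p = 0.0384). Under saline 1314 genes (11.8%) had an unadjusted p under 0.05. Whether the altered allele still makes a transcript that is counted under this gene is not stated, so these values are no check of the genotype. Het and WT therefore mean libraries labelled so throughout.

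After APAP, 5 genes were lower and 1 was higher in Het than in WT livers at an adjusted p under 0.05 (limma, Benjamini-Hochberg over all genes tested), which is 0.0451% and 0.00902% of the 11090 genes. The lower genes were Nudt7, Mlxipl, Tlcd2, Ugt2b1 and Ddc, and the higher one was the ribosomal protein pseudogene Gm6472. Gm6472 is described although predicted genes were left out of the naming rule, a choice made after its values were seen. Many more genes leaned one way without passing: 2120 genes (19.1%) had an unadjusted p under 0.05, 1306 of them lower and 814 higher in Het, and 573 had an adjusted p under 0.1. In 1262 genes (11.4%) all 3 Het livers lay below all 3 WT livers, and in 994 (8.96%) they lay above.

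Nudt7 encodes a peroxisomal hydrolase of coenzyme A and its esters (chromosome 8, 114133557 to 114154739, plus strand, GRCm38). It stood at 82.4, 42.7 and 72.8 FPKM in Het APAP 1 to 3 and at 340, 233 and 199 FPKM in WT APAP 1 to 3. Each Het liver was thus far below the lowest WT liver. The difference was -2.19 ± 0.27 (adjusted p = 0.0131). Mlxipl encodes ChREBP, the transcription factor that switches on glycolytic and lipogenic genes when sugar is plentiful (chromosome 5, 135089890 to 135138382, plus strand). It stood at 10.5, 5.21 and 7.48 FPKM in the Het livers and 21.9, 13.4 and 17.6 FPKM in the WT livers, without overlap, a difference of -1.31 ± 0.18 (adjusted p = 0.0296).

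Ugt2b1, a glucuronosyltransferase of the enzyme family that conjugates drugs and steroids (chromosome 5, 86916638 to 86926530, minus strand), stood at 28.4, 13.3 and 17.0 FPKM in Het and 81.2, 57.8 and 38.6 FPKM in WT livers. Its difference was -1.71 ± 0.25 (adjusted p = 0.0316), and reads can be shared with other Ugt2b genes. Tlcd2, a membrane protein with a TLC domain (chromosome 11, 75461715 to 75470899, plus strand), stood at 30.6, 10.9 and 15.9 FPKM against 58.6, 61.1 and 37.2 FPKM, a difference of -1.69 ± 0.25 (adjusted p = 0.0316). For both genes WT APAP 3 was the lowest WT liver and Het APAP 1 the highest Het liver, and the groups still did not overlap. Ddc, the decarboxylase of aromatic amino acids (chromosome 11, 11814101 to 11898144, minus strand), was the most even, at 11.0, 12.3 and 11.1 FPKM in Het and 30.1, 21.9 and 23.1 FPKM in WT livers, with a difference of -1.10 ± 0.16 (adjusted p = 0.0316).

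**Figure D1:**
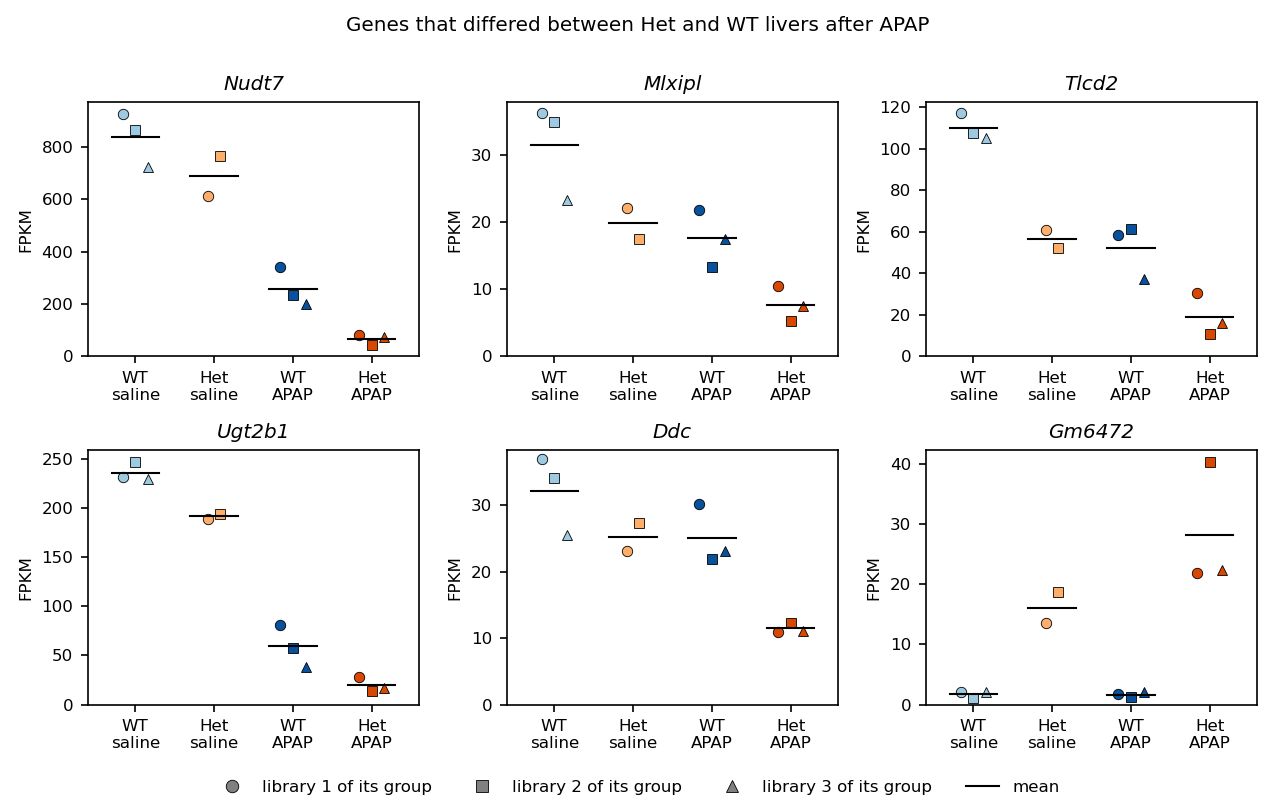
FPKM per library (vertical axes, from 0) of the 6 genes that passed, for WT saline (3 libraries), Het saline (2), WT APAP (3) and Het APAP (3). Symbols give the library number and bars the mean. In the 5 lower genes every Het APAP liver lies below every WT APAP liver, and Gm6472 lies between 13.6 and 40.3 FPKM in all Het livers and at or below 2.09 in the WT livers shown.

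How many genes passed depended on the fit. Within lane L005 (2 Het against 3 WT livers) 5 were higher and 7 lower, and Gm6472 was the only 1 of the 6 genes among those 12. Car5a, Cyp1a2 and Cyp7a1, described below as not passed in the reported fit, were also among those 12. The 5 lower genes had adjusted p-values of 0.0985 to 0.124 there, and they were also lost with no perfusion term, where 1 gene was higher and 0 lower. With lane in place of perfusion 247 were higher and 503 lower, and with libraries weighted by their quality 551 and 950. Without WT APAP 3 there were 305 higher and 547 lower genes, without Het APAP 1 180 and 381, and without WT saline 3 46 and 212. Without Het APAP 2 or WT APAP 1 the only call was 1 higher gene. The counts were 3 and 3 without Het APAP 3, 1 and 3 without WT APAP 2, and 1 and 1 without WT saline 1, WT saline 2, Het saline 1 or Het saline 2. All 6 genes kept their sign in each of 27 alternative fits. These fits share libraries and several give the same estimates, such as those within lane L005, with lane and without Het APAP 1. They are therefore not separate checks. Gm6472 passed in all 27, Nudt7 in 22, Mlxipl in 18 and the other 3 in 16 each, with highest adjusted p-values of 0.25 for each of the 5 lower genes, in the fit of the 6 libraries alone.

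Without the drug the 5 lower genes leaned the same way but did not pass. Tlcd2 stood at 60.7 and 52.1 FPKM in the Het saline livers and 117, 108 and 105 FPKM in the WT saline livers, a difference of -1.15 ± 0.27 (adjusted p = 0.193). Mlxipl had -0.83 ± 0.20 under saline, at 22.1 and 17.5 FPKM against 36.4, 34.9 and 23.4 FPKM. Nudt7, at 613 and 764 FPKM in Het and 926, 864 and 722 FPKM in WT saline livers, overlapped there and had -0.51 ± 0.30. The corresponding values were -0.46 ± 0.28 for Ugt2b1 and -0.37 ± 0.18 for Ddc. WT saline livers share no lane tag with the Het saline livers, so genotype and lane cannot be told apart in these saline differences.

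The higher gene, Gm6472, is annotated as a transcribed processed pseudogene, that is a copy of a spliced mRNA inserted back into the genome (chromosome X, 152909505 to 152910155, minus strand). RefSeq names it Rps7-ps3, after Rps7, the gene of a protein of the small ribosomal subunit on chromosome 12 (28630854 to 28635953, minus strand). Its transcript of 651 bases matches the Rps7 transcript at 647 bases with no gap, and 3 of the 4 mismatches lie in the Rps7 coding sequence. The first 138 coding bases of each transcript are shown because they hold those 3 mismatches, in capitals, which are all that tells coding reads of the copies apart (GENCODE vM21, GRCm38).
Rps7: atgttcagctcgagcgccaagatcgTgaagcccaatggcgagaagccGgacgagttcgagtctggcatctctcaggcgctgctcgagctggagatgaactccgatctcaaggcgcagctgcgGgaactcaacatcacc
Gm6472: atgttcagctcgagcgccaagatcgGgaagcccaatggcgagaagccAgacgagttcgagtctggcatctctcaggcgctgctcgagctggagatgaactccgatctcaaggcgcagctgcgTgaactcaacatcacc
Counted from the A of the start codon, with the Rps7 base first, the substitutions are T26G, G48A and G123T. Reads that cover none of the mismatches fit both genes, so the value of Gm6472 is uncertain.

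Gm6472 stood at 22.0, 40.3 and 22.4 FPKM in the Het and 1.68, 1.23 and 2.03 FPKM in the WT livers after APAP, a difference of 3.46 ± 0.25 (adjusted p = 6.13e-05). Under saline it stood at 13.6 and 18.7 FPKM in Het and at 2.09, 1.13 and 2.05 FPKM in WT livers, a difference of 2.68 ± 0.27 that passed as well (adjusted p = 0.00372). Rps7 itself did not separate the labels, at 186 to 392 FPKM in the 5 Het libraries and 192 to 402 FPKM in the other 12. As a percentage of Rps7, Gm6472 ran from 7.28% to 10.3% in the 5 Het libraries and from 0.50% to 1.55% in the 12 others. Of the genes that passed, it is the one whose values separated the Het label from every other label in both treatments.

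**Figure D2:**
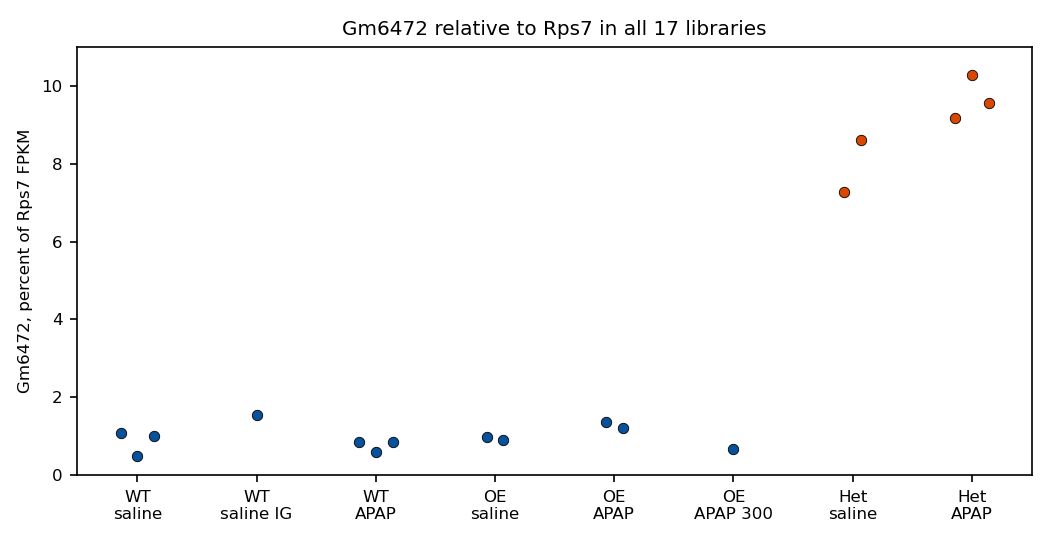
Gm6472 as a percentage of the FPKM of Rps7 (vertical axis) in each of the 17 libraries, by genotype and treatment label. Points are single libraries. The 5 Het libraries lie between 7.28% and 10.3% and the 12 others between 0.50% and 1.55%.

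The 7 genes ranked next on the lower side, among those without overlap, had an adjusted p of 0.055 each in limma and did not pass. Car5a, a mitochondrial carbonic anhydrase, stood at 10.4, 3.49 and 4.51 FPKM in Het and 16, 16.1 and 16.1 FPKM in WT livers, a difference of -1.52 ± 0.25. Within lane L005 Car5a had -1.78 and passed (limma adjusted p = 0.0278). Aox3, an aldehyde oxidase, stood at 38.7, 9.20 and 24.7 FPKM against 124, 128 and 52.6 FPKM, the largest difference among these at -2.38 ± 0.40. Coq8a, needed for coenzyme Q synthesis, had -2.01, the ABC transporter Abca8a -1.91, the P450 Cyp4f15 -1.45, the organic anion transporter Slc22a30 -1.37 and Kynu -1.16.

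On the higher side the next 12 genes without overlap, with adjusted p-values of 0.055 to 0.064, did not pass either. Thbd, thrombomodulin of the vessel wall, stood at 5.47, 19 and 11.9 FPKM in Het and 1.06, 1.87 and 4.61 FPKM in WT livers (2.04 ± 0.41). Tnc, the injury-induced matrix protein tenascin C, stood at 7.54, 10.5 and 10.9 FPKM against 2.19, 2.50 and 5.55 FPKM (1.34 ± 0.29). The endothelial cadherin Cdh5 had 0.91, the junction genes Gja1 and Jam2 1.08 and 1.21, Emp1 1.32, Tinagl1 0.73 and the small Maf factor Maff 1.44. Vps45, a trafficking protein, had 0.81, the histone chaperone Nap1l1 0.74 and the host genes of small nucleolar RNAs Snhg3 and Snhg15 had 1.24 and 1.05.

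Gene lists show how wide each pattern was. A list is described by the number of tested members whose 3 Het livers all lay below (or above) the 3 WT livers, to be read against 11.4% (or 8.96%) of all genes, and by its median difference, to be read against -0.02 for all genes tested. Counts of negative or positive differences are to be read against 5845 negative and 5244 positive among the 11090 genes tested. Members of 3 lists passed, 1 gene in each, as named above.

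**Figure D3:**
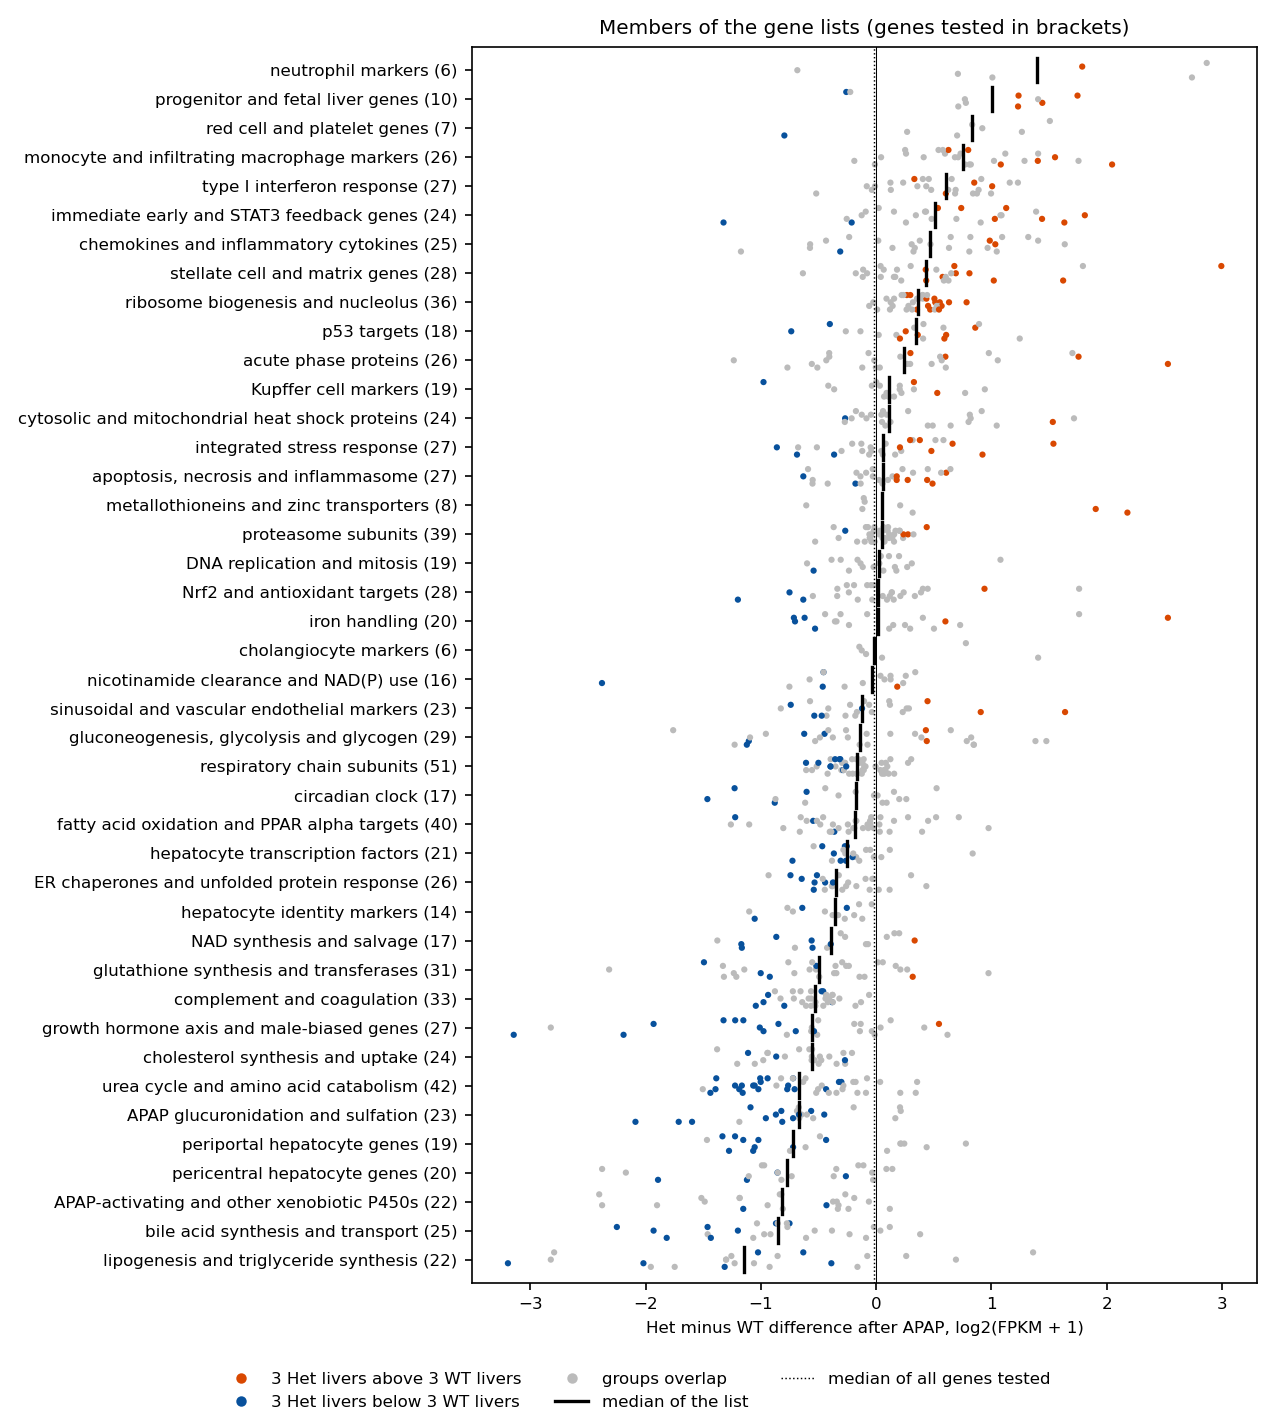
Het minus WT difference after APAP on the log2(FPKM + 1) scale (horizontal axis) of every tested member of the 42 lists with at least 5 tested genes. Colours mark members whose groups did not overlap, black bars the list medians, and the dotted line the median of all genes at -0.02. List medians run from -1.143 for lipogenesis to 1.40 for neutrophil markers.

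Of 23 genes of APAP glucuronidation and sulfation 12 had no overlap, all lower, and the median was -0.67, with Ugt2b1 the member that passed. The xenobiotic P450s had a median of -0.82, which was -0.32 without Het APAP 3 and -0.45 without WT APAP 2, and 2 of 22 had no overlap. Cyp2e1, the main APAP-activating P450, stood at 462, 210 and 122 FPKM in Het and 438, 813 and 228 FPKM in WT livers, and Cyp1a2, another one, at 70.6, 12.5 and 7.77 against 53.5, 107 and 79.7 FPKM. In both, Het APAP 1 lay above the other 2 Het livers and inside the WT range. Their differences of -0.82 ± 0.69 (adjusted p = 0.544) and -2.38 ± 0.51 (adjusted p = 0.066) did not pass. Within lane L005, which leaves out Het APAP 1, Cyp1a2 had -2.84 and passed (limma adjusted p = 0.0485). Cyp2e1 had -0.20 without Het APAP 3 and -0.37 without WT APAP 2. Cyp3a25 had -1.52 and Cyp2f2, an airway and periportal P450, -1.15.

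Glutathione genes had a median of -0.49, with 4 of 31 lower and 1 higher without overlap. The transferases Gstm6 and Gstm4 had -1.49 and -1.33, Cbs of cysteine synthesis had -0.92, and Gclc, the rate-limiting enzyme of glutathione synthesis, stood at 70.0, 85.0 and 80.0 against 73.5, 82.8 and 66.7 FPKM. Targets of the antioxidant regulator Nrf2 had a median of 0.02 and spread both ways. Hmox1, which degrades haem, stood at 36.0, 89.6 and 92.9 FPKM in Het and 12.4, 13.9 and 46.2 FPKM in WT livers (1.76 ± 0.49, adjusted p = 0.096). The export pumps Abcc2 and Abcc4 had -1.20 and -0.75, both without overlap, and Nqo1, at 8.51, 5.86 and 3.06 FPKM against 2.82, 8.97 and 3.44 FPKM, had 0.24 ± 0.40 and -0.07 within lane L005.

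NAD synthesis had a median of -0.39. Of 17 tested genes 6 were lower and 1 was higher without overlap, and none passed. The leading members belong to the route from tryptophan. Kynu, kynureninase, stood at 23.4, 14.8 and 18.5 FPKM in Het and 54.7, 37.2 and 32.0 FPKM in WT livers (-1.16 ± 0.19). Haao, which makes the quinolinate precursor, stood at 126, 46.0 and 52.8 FPKM against 190, 161 and 102 FPKM (-1.38 ± 0.30, adjusted p = 0.0648), with Het APAP 1 inside the WT range. Ido2, which opens the tryptophan ring, had -0.87 ± 0.23. The others without overlap were named after their values were seen: Naprt (-0.55), Afmid (-1.17), Nadk (-0.39) and Nadk2 (-0.56) were lower in Het and Nmnat3 (0.33) was higher. Tdo2, the liver's main tryptophan oxygenase, also named after its values were seen, stood at 407, 331 and 326 FPKM against 446, 292 and 413 FPKM. Genes of nicotinamide clearance and NAD use had a median of -0.04, with Sirt3 at -0.58 and Sirt7 at -0.46 beside Aox3. Without WT APAP 1 the NAD synthesis median was -0.22. Under saline that list had a median of 0.14, while Haao stood at 178 and 167 FPKM in Het and 303, 274 and 311 FPKM in WT livers (-1.04 ± 0.34, adjusted p = 0.287), and Kynu had -0.41 ± 0.21.

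Amino acid metabolism held the most non-overlapping genes by number. By share of tested members APAP glucuronidation and sulfation stood higher, with 52.2% lower without overlap against 47.6%. Of 42 genes of the urea cycle and amino acid catabolism 20 were lower and 0 higher without overlap, and the median was -0.67. Otc, of the urea cycle, stood at 69.4, 43.8 and 41.7 FPKM in Het and 145, 108 and 77.3 FPKM in WT livers (-1.16 ± 0.23, adjusted p = 0.057), and Aldh4a1, of proline breakdown, had -1.39 ± 0.26. Periportal hepatocyte genes had a median of -0.72 with 9 of 19 lower, among them Ass1 of the urea cycle at 426, 274 and 230 FPKM against 943, 616 and 465 FPKM. The periportal median was -0.43 without WT APAP 1. Pericentral genes had a median of -0.78, which was -0.32 without Het APAP 3 and -0.35 without WT APAP 2, and 4 of 20 had no overlap. Glul, the glutamine synthetase of central vein hepatocytes, stood at 22.1, 17.1 and 15.3 FPKM in Het and 19.7, 40.1 and 20.8 FPKM in WT livers (-0.37 ± 0.35, adjusted p = 0.601). Rgn had -2.17 ± 0.44 (adjusted p = 0.059) with Het APAP 1 at 286 FPKM inside the WT range of 217 to 373 FPKM, and Notum, a Wnt inhibitor, had -1.12 at no more than 4.49 FPKM.

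Hepatocyte transcription factors had a small median of -0.25, with 8 of 21 lower without overlap, and -0.16 without Het APAP 2. Cebpa, which maintains the hepatocyte programme, stood at 35.2, 23.9 and 35.9 FPKM in Het and 55.5, 54.2 and 56.3 FPKM in WT livers (-0.73 ± 0.23, adjusted p = 0.122), and Rxra and Nr5a2 had -0.47 and -0.54. Growth hormone and male-biased genes, the list that holds Nudt7, had a median of -0.56 with 11 of 27 lower and 1 higher. Complement and coagulation genes had a median of -0.53 (-0.28 under saline), with 7 of 33 lower without overlap. Each of the 33 had a negative difference, with C8b at -0.94 and Serpind1 at -1.04. Hepatocyte identity markers summed to 18050 to 23160 FPKM in Het and 20060 to 30530 FPKM in WT livers, with WT APAP 3 the lowest of the WT livers, and their part in these lower lists was not tested.

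Bile acid genes had a median of -0.85 with 8 of 25 lower without overlap. Abcb11, the bile salt export pump, stood at 40.1, 20.0 and 22.8 FPKM in Het and 141, 90.1 and 43.0 FPKM in WT livers (-1.82 ± 0.34, adjusted p = 0.055). Cyp7a1, the first and rate-limiting bile acid synthesis enzyme, stood at 1.67, 0.477 and 0.578 FPKM against 13.8, 5.82 and 9.21 FPKM, without overlap but with a wide error (-2.25 ± 0.68, adjusted p = 0.12). Within lane L005 Cyp7a1 had -2.73 and passed (limma adjusted p = 0.0485). Under saline Abcb11 had -1.06 ± 0.38 (adjusted p = 0.329), at 97.9 and 82.3 FPKM in Het and 155, 188 and 145 FPKM in WT livers, and Cyp7a1 had 0.78 ± 0.75. Amacr, of side chain oxidation, had -0.87.

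Lipogenesis, the list of Mlxipl, had the lowest median at -1.143 and 6 of 22 genes lower without overlap, and its median under saline was nearly as low at -1.13. Thrsp and Fasn, targets of ChREBP and of the sterol regulator Srebf1, are named here after their values were seen. Thrsp stood at 43.2, 9.98 and 10.5 FPKM in Het and 95.5, 121 and 85.3 FPKM in WT livers after APAP, and at 111 and 63.7 FPKM against 636, 402 and 911 FPKM under saline. Fasn, fatty acid synthase, stood at 42.9, 12.2 and 18.3 FPKM against 72.4, 130 and 39.6 FPKM after APAP and at 37.8 and 38.0 FPKM against 128, 91.7 and 227 FPKM under saline. For both genes neither difference passed (adjusted p = 0.0994 and 0.259 for Thrsp, 0.109 and 0.286 for Fasn). Cholesterol synthesis had a median of -0.56 after APAP and -0.47 under saline. All 24 genes were negative after APAP, but only 3 were lower without overlap, 12.5% beside 11.4% of all genes. Ebp had -0.94 and Sc5d -1.38 after APAP. Fatty acid oxidation genes had a median of -0.18 after APAP, which ranged from -0.32 to -0.03 with single libraries left out, and 0.62 under saline. Respiratory chain subunits had -0.17, with a range of -0.285 to -0.016, and Atp5d had -0.61. Pck1, of gluconeogenesis, had -0.49 ± 0.51, and Fgf21, a fasting hormone, was at or below 2.16 FPKM in all 6 livers.

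**Figure D4:**
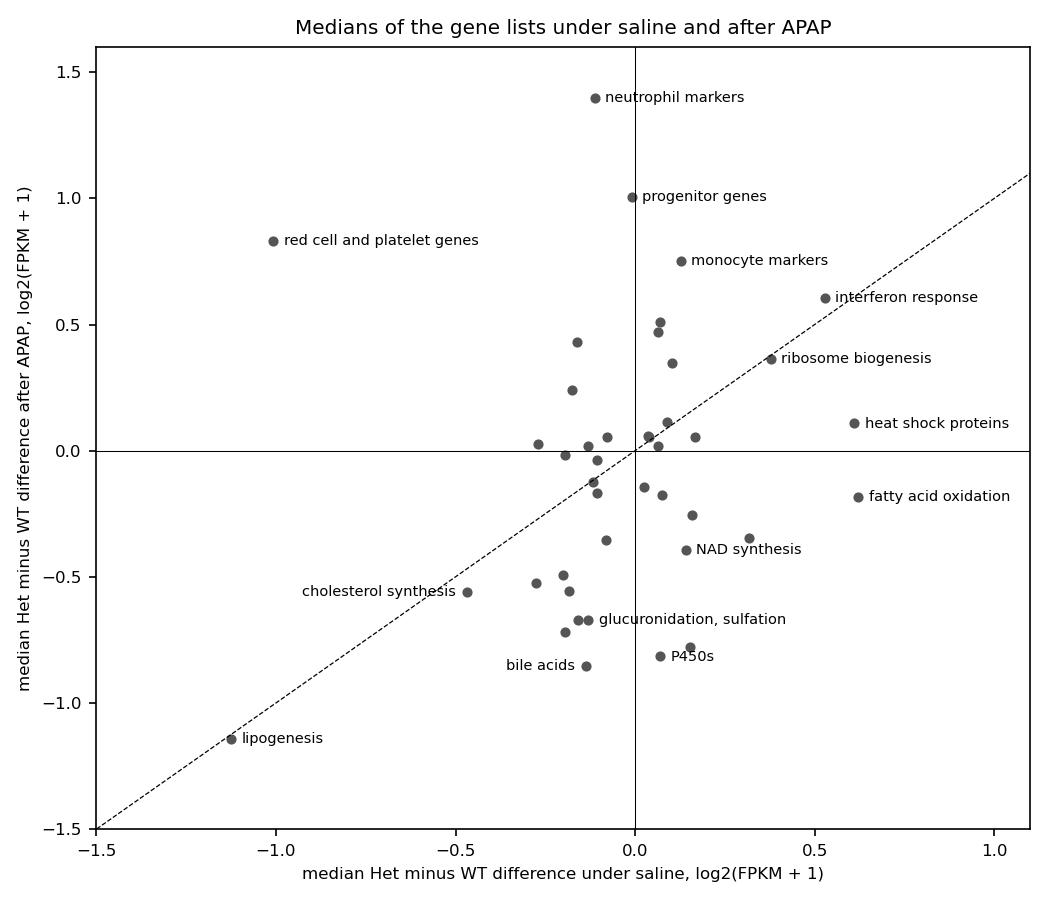
Median Het minus WT difference of each list with at least 5 tested genes under saline (horizontal axis) and after APAP (vertical axis), both on the log2(FPKM + 1) scale. Each point is a list and the dashed line marks equal values. Lipogenesis (-1.13 and -1.143) and ribosome biogenesis (0.38 and 0.36) lie near that line, while bile acid genes (-0.14 and -0.85) and monocyte markers (0.13 and 0.75) lie away from it.

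Among stress and repair genes the metallothioneins had the highest differences. Metallothionein Mt1 stood at 1525, 2357 and 1179 FPKM in Het and 183, 226 and 538 FPKM in WT livers (2.18 ± 0.79, adjusted p = 0.178), and Mt2 at 701, 1170 and 761 FPKM against 78.1, 86.3 and 338 FPKM. Neither overlapped and neither passed, with WT APAP 3 the highest WT liver for both. Their list, which also holds zinc transporters, had a median of 0.05, with 4 of 8 differences negative. In that list 2 genes were higher and 0 lower without overlap, and the zinc transporter Slc39a8 had -0.61. Atf3, a stress-induced transcription factor, stood at 19.3, 39.9 and 29.5 FPKM against 6.85, 9.42 and 15.7 FPKM (1.54 ± 0.34, adjusted p = 0.066). The list of the integrated stress response had a median of 0.06, with 7 of 27 higher and 3 lower without overlap. Ddit3 had 0.51 ± 0.59 (0.20 within lane L005), Ddit4 0.92, Nupr1 -0.86 and Gdf15 0.58 ± 0.33. Chaperones of the endoplasmic reticulum had a median of -0.35, which was -0.14 without Het APAP 2. Of these 26 genes 7 were lower without overlap, among them Edem1 (-0.65). The inducible heat shock gene Hspa1a stood at 5.78, 8.06 and 6.55 FPKM against 0.837, 2.22 and 2.73 FPKM (1.53 ± 0.34), while its list had a median of 0.11.

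Immediate early and STAT3 feedback genes had a median of 0.51, with 7 of 24 higher and 2 lower without overlap, and 0.33 without WT APAP 1. Fos stood at 5.20, 14.6 and 6.81 FPKM in Het and 0.879, 2.67 and 2.09 FPKM in WT livers (1.81 ± 0.39, adjusted p = 0.065). Among p53 targets, with a median of 0.35 and 6 of 18 higher and 2 lower without overlap, the cell cycle inhibitor Cdkn1a stood at 6.12, 19.4 and 14.8 FPKM against 2.97, 5.36 and 7.85 FPKM (1.25 ± 0.36, adjusted p = 0.099), and the cell death gene Bax had 0.61 without overlap. Cyclin Ccnd1 stood at 9.28, 7.95 and 6.40 FPKM against 10.8, 13.8 and 10.6 FPKM (-0.54 ± 0.23, adjusted p = 0.22). Replication and mitosis genes had a median of 0.03. Of 10 progenitor and fetal liver genes 4 were higher and 1 was lower without overlap, with a median of 1.005. The keratins Krt18 and Krt8, known also as markers of stressed hepatocytes, had 1.24 ± 0.30 and 1.23 ± 0.30, and the duct and progenitor factor Sox9 had 0.78 ± 0.20.

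Ribosome biogenesis had the most even upward list: 13 of 36 genes were higher and 0 lower without overlap, 34 differences were positive, and the median was 0.36. Npm1, a nucleolar chaperone, stood at 105, 105 and 104 FPKM in Het and 74.0, 80.9 and 68.8 FPKM in WT livers (0.51 ± 0.15, adjusted p = 0.105), and Ncl, nucleolin, had 0.57. WT APAP 3 did not stand with the Het livers in this list. The median under saline was 0.38.

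**Figure D5:**
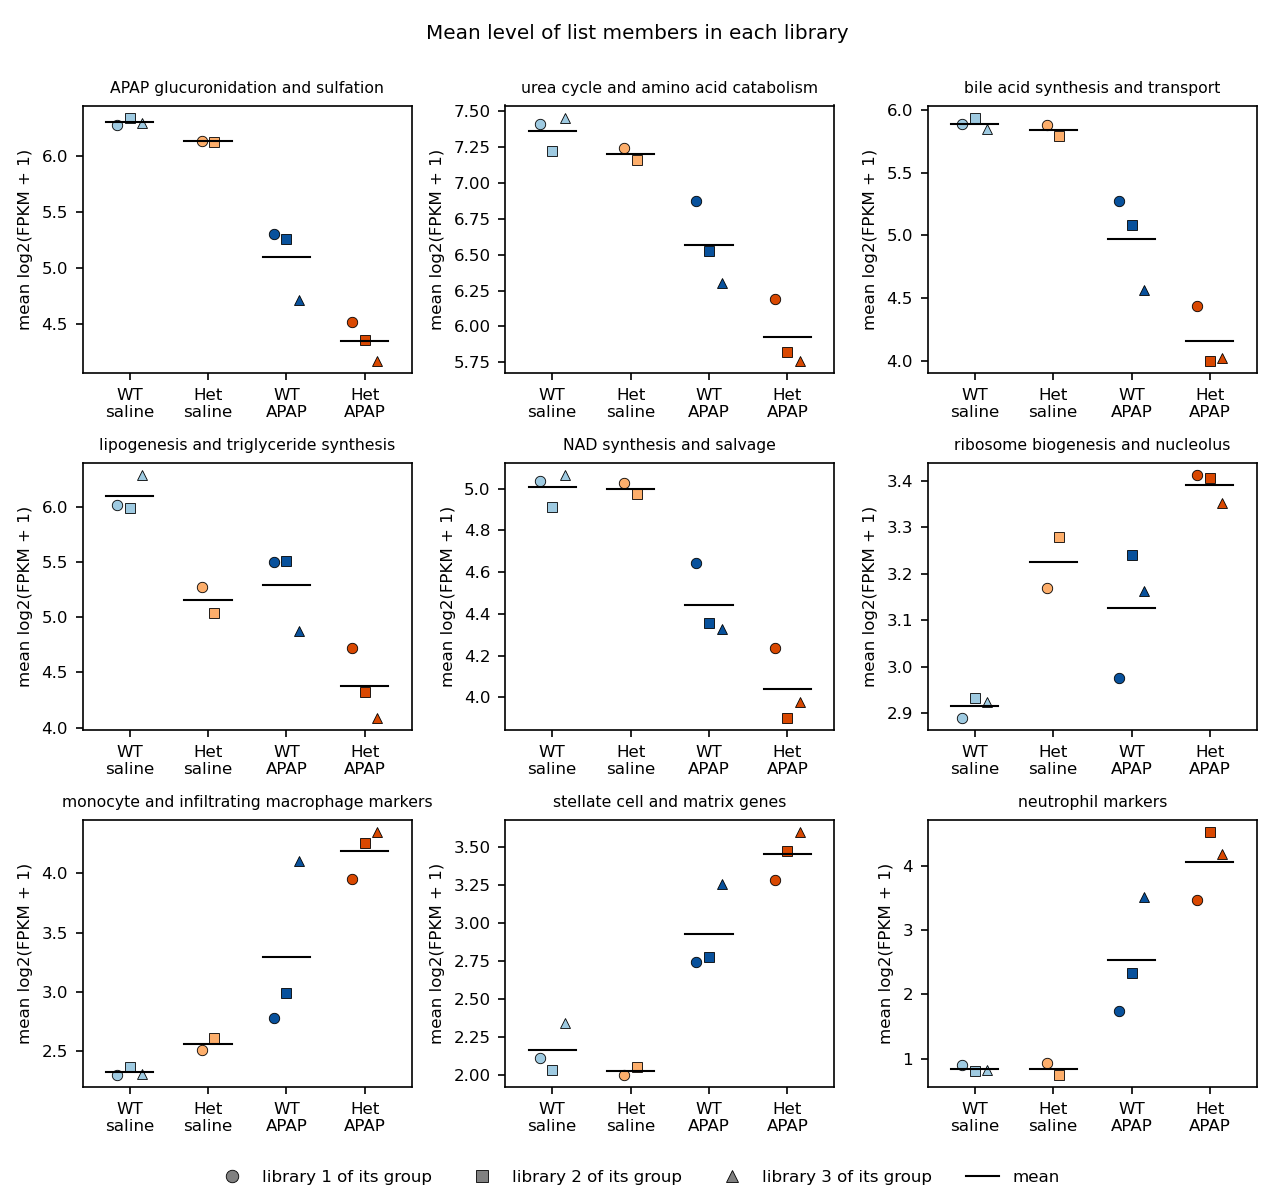
Mean log2(FPKM + 1) over the tested members of 9 lists in each library (vertical axes, ranges differ and do not start at 0) for WT saline, Het saline, WT APAP and Het APAP. Symbols give the library number and bars the group mean. WT APAP 3, the dark blue triangle, lies at 4.10 for monocyte markers, above Het APAP 1 at 3.95, but at 3.16 for ribosome biogenesis, below all Het APAP livers.

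Markers of infiltrating cells had high values in the Het livers and in WT APAP 3. Monocyte and infiltrating macrophage markers had a median of 0.75, with 24 of 26 differences positive and 6 without overlap, all higher. Chil3, a secreted protein of recruited macrophages, stood at 13.8, 54.2 and 27.1 FPKM in Het and 2.00, 8.45 and 12.4 FPKM in WT livers (2.05 ± 0.57, adjusted p = 0.096). The 30 markers together summed to 738, 1012 and 1055 FPKM in Het and 398, 581 and 907 FPKM in WT livers, so that WT APAP 3 lay above Het APAP 1. Without WT APAP 3 the median was 1.137. Of 16 neutrophil markers 6 were tested, with a median of 1.40. S100a8, an abundant neutrophil protein, stood at 35.1, 205 and 83.4 FPKM in Het and 3.25, 5.64 and 40.8 FPKM in WT livers (2.87 ± 1.1, adjusted p = 0.22). Retnlg had 1.79 without overlap and Csf3r 1.01. All 16 markers summed to 102 to 485 FPKM in Het and 19.8 to 127 FPKM in WT livers.

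Among signals, the monocyte attractant Ccl2 stood at 17.8, 23.9 and 38.2 FPKM in Het and 3.43, 16.6 and 22.1 FPKM in WT livers (1.05 ± 0.61, adjusted p = 0.377), and its list of chemokines and cytokines had a median of 0.47 with 2 of 25 higher and 1 lower without overlap. Acute phase genes had a median of 0.24, which was -0.068 without Het APAP 2, 0.034 without WT APAP 1, 0.10 without WT APAP 2 and 0.16 without Het APAP 1. Saa1, an acute phase apolipoprotein, stood at 4769, 5118 and 837 FPKM in Het and 579, 380 and 3256 FPKM in WT livers, a difference of 0.57 ± 1.32 that ranged from -0.63 to 1.5 when libraries were left out in turn. Saa2 had 0.55 ± 1.67, with a range of -0.71 to 1.59, and reads of the copies can be shared. Lcn2, an iron-siderophore binding protein, stood at 850, 2034 and 1002 FPKM against 34.7, 88.4 and 800 FPKM, without overlap (2.53 ± 1.5, adjusted p = 0.394). Hamp, hepcidin, stood at 1011, 399 and 1034 FPKM against 299, 521 and 905 FPKM (0.50 ± 0.45). Of the acute phase list Fga, Fgb, Hpx, Trf and Serpina3m were listed at 0 in all Het APAP livers and high in the WT APAP livers, and such zeros were taken as failed estimates and left out.

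Matrix and stellate cell genes had a median of 0.43 with 9 of 28 higher and 0 lower without overlap. The matrix protease Mmp14 had 0.68 and the collagen Col5a2 0.69, both without overlap. The marker sum was 422 to 580 FPKM in Het and 263 to 378 FPKM in WT livers. Interferon genes had a median of 0.60 after APAP and 0.53 under saline, with 4 of 27 higher without overlap and Oasl2 at 1.01 after APAP. The median after APAP was 0.31 without WT APAP 2, 0.34 without Het APAP 3 and 0.93 without WT APAP 3.

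Kupffer cell markers had a median of 0.11 and summed to 408 to 527 FPKM in Het and 296 to 552 FPKM in WT livers. Endothelial markers had a median of -0.12, with 3 higher and 4 lower of 23 without overlap, and summed to 175 to 203 FPKM against 176 to 211 FPKM. Within that list Cdh5 stood beside the sinusoidal genes Clec4g (-0.83) and Bmp2 (-0.54). T, NK and B cell markers were near the floor, summing to 4.90 to 8.79 FPKM and 8.02 to 12.7 FPKM. Red cell and platelet genes had a median of 0.83, which ranged from 0.30 without Het APAP 2 to 1.32 without Het APAP 1, with the globin Hbb-bs at 26.6 FPKM in the perfused Het APAP 1, 973 and 341 FPKM in Het APAP 2 and 3, and 158, 71.6 and 141 FPKM in the WT livers. The part of these cell types in the differences above was not tested. Proteasome subunits had a median of 0.05, cell death genes 0.06, with 6 higher and 2 lower of 27 without overlap, and the 6 cholangiocyte markers tested -0.02.

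The contrast of the APAP responses was taken as the Het minus WT difference after APAP less that under saline. In limma 0 of 11090 genes passed, the smallest adjusted p being 0.224, and 916 genes (8.26%) had an unadjusted p under 0.05. With weighted libraries 431 genes passed. With lane in place of perfusion 1009 did, but no lane tag joins the WT saline livers to the other 3 groups. That fit therefore cannot estimate this contrast, and no conclusion is drawn from its count. The 5 genes of smallest p in the reported fit had opposite differences under saline and APAP, which ranking by this contrast favours. Itpr2, a calcium release channel of hepatocytes, stood at 3.29, 3.72 and 4.10 FPKM in Het and 7.62, 5.99 and 6.53 FPKM in WT livers after APAP, but at 7.91 and 6.83 FPKM against 4.67, 4.62 and 4.90 FPKM under saline (-1.26 ± 0.19). Esr1, the oestrogen receptor, had -1.51 ± 0.29, the transcription factors Rfx5 and E2f8 -1.24 and -1.40, and Fam129b 1.98 ± 0.34. Levels were low for E2f8, at or below 1.67 FPKM in all 6 livers after APAP. Rfx5 was at or below 1.24 FPKM in the WT saline livers, and Fam129b at 0.84 and 0.91 FPKM in the Het saline livers. Among the 6 genes that passed after APAP, Nudt7 had -1.68 ± 0.39 (adjusted p = 0.473), Ugt2b1 -1.25 ± 0.36 (adjusted p = 0.601) and Gm6472 0.78 ± 0.36 (adjusted p = 0.601). WT saline livers share no lane with the other 3 groups, so this contrast and lane cannot be told apart.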

How the data were processed

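Strand-specific total RNA libraries of liver were read as pairs, per the labels' protocols. Cufflinks 2.2.1, Cuffdiff, TopHat2 2.0.9 and bcl2fastq 2.17.1.14 were the tools and GRCm38 p5 the build, per the submitters' processing notes. No annotation or Cuffdiff version was given in the sources used here. The authors' values were read as FPKM, a unit inferred from those tools and the values, and no read counts were used. Left out were 107 genes (29 protein-coding) listed at 0 throughout a genotype and drug block but with a mean of at least 10 FPKM in another block given the same agent, or within 100 kb of such a gene with the same zeros. That rule was chosen after seeing the data. Of the 29, 27 were at 0 in all Het APAP livers.

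limma 3.58.1 (R 4.3.3) fitted log2(FPKM + 1) of the deposited values of all 17 libraries with a mean per label group (8) and a perfusion term, with a trended and robust prior (statmod 1.5.0) and 8 residual degrees of freedom, on the 11090 genes that averaged 1 FPKM or more. Tests are two-sided with Benjamini-Hochberg adjustment at 0.05, and the fit was tested on simulated data. The alternatives were other covariates, libraries, pseudocounts, filters, scalings and variance models, and each library left out. Genes named are Nampt, up to 12 higher and 12 lower genes (passed first, then by smallest p, without overlap, at least 5 FPKM in the higher group, predicted genes and pseudogenes left out), 20 key genes, up to 5 passed or else 3 leading members per list, and 5 for the response contrast. The members and the 43 lists were chosen with earlier results of these data known. Gene positions and transcripts are from GENCODE vM21 and were aligned with Biopython 1.88.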

Additional observations from a re-analysis of the deposited data

How the results depend on the processing

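Counts of higher and lower genes (1 and 5 as reported) were 18 and 23 without the Nampt OE libraries, 247 and 503 with lane in place of perfusion, 551 and 950 with weighted libraries, 23 and 67 with quantile normalisation and 15 and 95 with failed estimates kept. They were 5 and 68 with a pseudocount of 0.1, 4 and 5 with one of 5, 54 and 6 with no filter, 8 and 81 with a mean of at least 5 FPKM, and 5 and 7 within lane L005. The 6 libraries alone, and all libraries with no perfusion term, gave 1 and 0. Leaving out single libraries gave 1 to 305 higher and 0 to 547 lower genes. Within lane L005 without WT APAP 3, an alternative chosen after seeing the data, 303 were higher and 389 lower. Genes with a different response (0 as reported) were 431 with weighted libraries, 30 with failed estimates kept, 4 with no filter, and 0 to 2 with single libraries left out. The 1009 with lane come from a fit that cannot estimate this contrast.

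Nampt did not pass in any of 27 alternatives (0.01 to 0.37). Among named genes the sign turned for Nqo1 (-0.067 within lane L005 and with lane, -0.42 with weighted libraries, -0.23 within lane L005 without WT APAP 3, -0.067 to 0.66 with libraries left out), Saa1 (-0.63 to 1.5) and Saa2 (-0.71 to 1.59), and the cause was not tested. List medians turned sign for iron handling (14 alternatives), Nrf2 targets (9), cholangiocyte markers (8), proteasome (7), heat shock proteins (6), replication (3), cell death (2), and Kupffer markers, acute phase genes and nicotinamide clearance (1 each), all with a reported median within 0.24 of 0. T, NK and B cell markers had no value at a mean of at least 5 FPKM. No paired analysis was possible because the labels give the libraries no shared replicate numbers. Quantile normalisation moved the median of all genes from -0.02 to 0.00113. FPKM without counts leaves the error of low genes unknown, and 3 livers a group, with WT APAP 3 apart, limit every comparison.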

Other observations

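Rps7, the gene that Gm6472 copies, starts 4.19 Mb from Nampt on chromosome 12, so genes around Nampt were looked at in a window of 5 Mb on each side, chosen after seeing the data. Of 28 genes tested there, 0 passed, 6 had an unadjusted p under 0.05 after APAP, where 19.1% of all genes did, and 4 under saline, where 11.8% did, and the median difference after APAP was -0.02. Tmem18, a nuclear membrane protein 2.24 Mb from Nampt, was the 1 gene in both sets. It stood at 7.05, 7.16 and 6.98 FPKM in Het and 4.21, 4.48 and 5.49 FPKM in WT livers after APAP (0.52, adjusted p = 0.067 in limma), and at 7.8 and 8.06 FPKM in Het and 5.50, 5.35 and 5.47 FPKM in WT livers under saline (0.49, adjusted p = 0.23). Agmo, which cleaves ether lipids, had -0.79 after APAP and 0.02 under saline.

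Nr1d1, a repressor of the circadian clock, stood at 4.84, 2.54 and 3.38 FPKM in Het and 9.38, 8.69 and 6.03 FPKM in WT livers (-1.23 ± 0.24, adjusted p = 0.055), and Nr1d2 and Cry2 had -0.88 and -0.62. None passed, and the median of the 17 clock genes was -0.18. Under saline Nr1d1 had -1.41, and the times of day at which livers were taken were not given in the labels.

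In sugar metabolism the list median was -0.14, but Slc2a1, a glucose transporter, and Aldoa, an aldolase of non-hepatocyte glycolysis, had 1.38 ± 0.31 and 0.85 ± 0.19 beside Pygl, liver glycogen phosphorylase, at -1.12 ± 0.28. Slc2a1 stood at 7.02, 22.5 and 12.6 FPKM in Het and 3.26, 4.12 and 8.21 FPKM in WT livers, with Het APAP 1 inside the WT range. Iron genes had a median of 0.02, with the hepcidin regulators Tfr2 and Hfe2 at -0.62 and -0.71, both without overlap.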
